A study of Rattus norvegicus with 20 samples.

Results

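The chemokine system was described on 20 Affymetrix arrays of the right ventricle of rats, through every probe set (a group of probes for 1 transcript) whose single gene symbol in the platform annotation is that of a numbered chemokine, chemokine receptor or atypical chemokine receptor. This rule found 58 probe sets of 45 genes, among 31042 probe sets that are not controls. They divide into 11 CXC ligand genes with 19 probe sets, 16 CC ligand genes with 17, 2 ligand genes of the XC and CX3C classes with 2, 12 receptor genes with 15 and 4 atypical receptor genes with 5.

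The study followed chronic pulmonary embolism (PE), in which vessels of the lung are blocked and the right ventricle has to pump against a higher pressure. All animals were male Sprague Dawley rats of about 350 g, injected into the right jugular vein, with no age stated in the labels used here. PE rats (PE2.0 in the titles) received 2000000 polystyrene microspheres of 25 micron per 100 g body weight in 0.01% Tween-20, and vehicle rats received 0.01% Tween-20 alone. The beads, and not injected clots, block the vessels in this model. After 6 weeks the hearts were briefly perfused with saline, and the right ventricle was cut into the apex and the outflow tract (the base, below the pulmonary artery). The 4 groups, each treatment in each of the regions, hold 5 arrays each. The titles number the samples as biological replicates, and within a treatment the same number in apex and outflow was read as the same rat.

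Chemokines are small secreted proteins that direct the movement of leukocytes, and they are classed by the spacing of cysteines near their start into CC, CXC, CX3C and XC types. They act through receptors coupled to G proteins on the moving cell, while atypical receptors bind the same ligands without that signal and remove or transport them. In a loaded or injured heart, chemokines made by endothelial cells, fibroblasts, muscle and resident macrophages are known to draw in monocytes, neutrophils and lymphocytes.

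Sequences upstream of the start site are shown for 5 ligand genes, since the results below turn on ligands that moved in opposite directions and 3 of these genes (Cxcl10, Cxcl11 and Cxcl13) share chromosome 14 of the rat with Cxcl1. They are the 250 bases before the start in RefSeq, build GRCr8, 5′ to 3′ on the gene's strand. The windows are chr14:17479322-17479571 (minus strand) for Cxcl1, chr5:61761165-61761414 (minus) for Ccl19, chr14:13917921-13918170 (minus) for Cxcl13, chr14:15988816-15989065 (plus) for Cxcl10 and chr14:15973478-15973727 (plus) for Cxcl11. Capitals mark matches, on either strand, to the consensus of NF-kappaB, the factor through which inflammatory cytokines act on many genes, or to the core of the interferon-stimulated response element (GAAA, any 2 bases, GAAA).
Cxcl1: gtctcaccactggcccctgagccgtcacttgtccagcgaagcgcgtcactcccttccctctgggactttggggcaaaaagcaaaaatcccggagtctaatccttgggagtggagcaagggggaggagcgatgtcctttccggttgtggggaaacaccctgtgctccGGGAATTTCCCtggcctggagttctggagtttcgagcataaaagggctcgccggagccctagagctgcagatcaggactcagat
Ccl19: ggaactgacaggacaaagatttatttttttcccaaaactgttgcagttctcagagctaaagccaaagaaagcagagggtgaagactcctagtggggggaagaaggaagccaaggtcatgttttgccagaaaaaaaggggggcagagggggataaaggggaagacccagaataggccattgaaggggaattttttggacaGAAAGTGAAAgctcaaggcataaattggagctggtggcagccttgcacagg
Cxcl13: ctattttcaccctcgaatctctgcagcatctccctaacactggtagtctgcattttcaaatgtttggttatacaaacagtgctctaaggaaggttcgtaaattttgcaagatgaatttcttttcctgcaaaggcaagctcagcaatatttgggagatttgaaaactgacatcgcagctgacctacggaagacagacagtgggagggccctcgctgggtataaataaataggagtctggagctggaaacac
Cxcl10: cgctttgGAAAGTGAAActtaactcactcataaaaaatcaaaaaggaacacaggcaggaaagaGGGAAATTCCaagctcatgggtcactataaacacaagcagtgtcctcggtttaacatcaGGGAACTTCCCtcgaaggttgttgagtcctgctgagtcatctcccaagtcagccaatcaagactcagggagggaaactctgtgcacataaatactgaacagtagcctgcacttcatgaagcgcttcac
Cxcl11: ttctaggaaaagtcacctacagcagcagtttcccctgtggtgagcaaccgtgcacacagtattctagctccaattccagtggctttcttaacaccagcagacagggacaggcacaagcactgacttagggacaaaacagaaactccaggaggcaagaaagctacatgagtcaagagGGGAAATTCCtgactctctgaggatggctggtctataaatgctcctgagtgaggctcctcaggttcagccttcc

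In Cxcl1 the capitals are 2 overlapping NF-kappaB matches whose first bases lie 84 and 83 bases before the start. Cxcl11 has 1 NF-kappaB match, 74 bases before the start. Cxcl10 has an interferon core match 243 bases before the start and 3 NF-kappaB matches, 1 at 187 bases and 2 that overlap, of which the nearer is at 127 bases. The match in Ccl19 is the interferon core, 51 bases before the start, and the window of Cxcl13 has no match to either motif. Of the 45 genes, 35 had an entry in the promoter table, and 9 of these (25.7%) held the NF-kappaB consensus: Cxcl1, Cxcl2, Cxcl6, Cxcl10, Cxcl11, Ccl7, Ccl9, Ccl20 and Ccr3. Among all 33469 promoters of the same length 6.33% held it. The interferon core was in 2 of the 35 (5.71%) and in 3.41% of all promoters. A match is a description of the letters only.

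Signals are the deposited values, 1 per probe set and array, on a linear scale. A probe set counts here as above background when its mean over the 20 arrays is over 64. By that measure 37 of the 58 probe sets and 31 of the 45 genes were above background, against 64.3% of all probe sets. The 14 genes that were not are Cxcl2, Cxcl6, Ccl9, Ccl11, Ccl20, Ccl22, Ccl28, Ccr3, Ccr4, Ccr6, Ccr10, Cxcr1, Cxcr2 and Cx3cr1. Receptors made up 7 of them, and their means ran from 8.34 (Cxcr2, the receptor of the neutrophil-attracting CXC ligands) to 59.1 (Cx3cr1, the receptor of Cx3cl1). Just inside the limit were Ccr2 at 64.7 and the 1 of 5 Cxcl3 probe sets above it at 68.4. With a limit of 32 instead, 38 genes were above background. By group mean, 36 probe sets were over 64 in vehicle apex, 36 in PE apex, 35 in vehicle outflow and 38 in PE outflow. Ccr6 (81.5) and Cx3cr1 (78.9) were over 64 in PE outflow. Of genes counted as above background, Ccl17 (57.5) and Cxcl1 (57.8) were under it in vehicle outflow, and Ccr2 (62.2) and Cxcl3 (53.5) in PE outflow. Levels of different probe sets cannot be ranked against each other, since probes differ in how strongly they bind.

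Quality differed on the PE outflow arrays. On GAPDH, whose control probe sets read both ends of the transcript, the 3' end exceeded the 5' end by a ratio of 6.12 on PE outflow replicate 2, 2.20 on replicate 4 and 2.34 on replicate 5. High ratios are seen with degraded RNA. The ratio was 1.70 and 1.71 on the other PE outflow arrays and 1.38 to 1.83 on the arrays of the other groups. For a number of member probe sets, results in the outflow tract are therefore also given without replicate 2 or with replicates 1 and 3 alone. Related genes and cell markers, given further below, were fitted with all arrays only. All 7 measured cardiomyocyte markers had a 20-array mean over 64, as the tissue label requires.

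In the outflow tract, 17 of the 58 probe sets were higher in PE than in vehicle rats, 2 were lower and 39 did not pass the test. Cxcl13, Ccl21, Ccl19, Cxcl16, Cxcl1, Ccl6, 1 probe set of Cxcl12 and the atypical receptors Ackr1 and Ackr2 rose clear of the vehicle arrays (9 probe sets or 15.5%, against 13.4% of all probe sets), and Cxcl11 fell clear of them (1 or 1.72%, against 9.98%). In the apex no member passed the test. Changes are log2 fold changes of the signal plus 16, with their standard error (SE) from a limma model of all 4 groups, 5 arrays per group, and a probe set was called at a Benjamini-Hochberg adjusted p under 0.05 over all 31042. A fold on this scale understates the change of dim probe sets. Called in the outflow tract were 32.8% of the members, against 34.5% of all probe sets tested, so the share called was near the background. Split by direction, 29.3% of members were higher and 3.45% lower, against 19.6% and 14.9% of all probe sets (6083 and 4637 probe sets). Centring arrays on their medians turned this to 4415 higher against 5966 lower. It moved the median change over the whole array from 0.05 to -0.08, while the members' median moved from 0.39 to 0.25. Tissue RNA was measured as a whole, so fewer or more cells of a type cannot be told apart from less or more RNA per cell in any of these values.

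**Figure D1:**
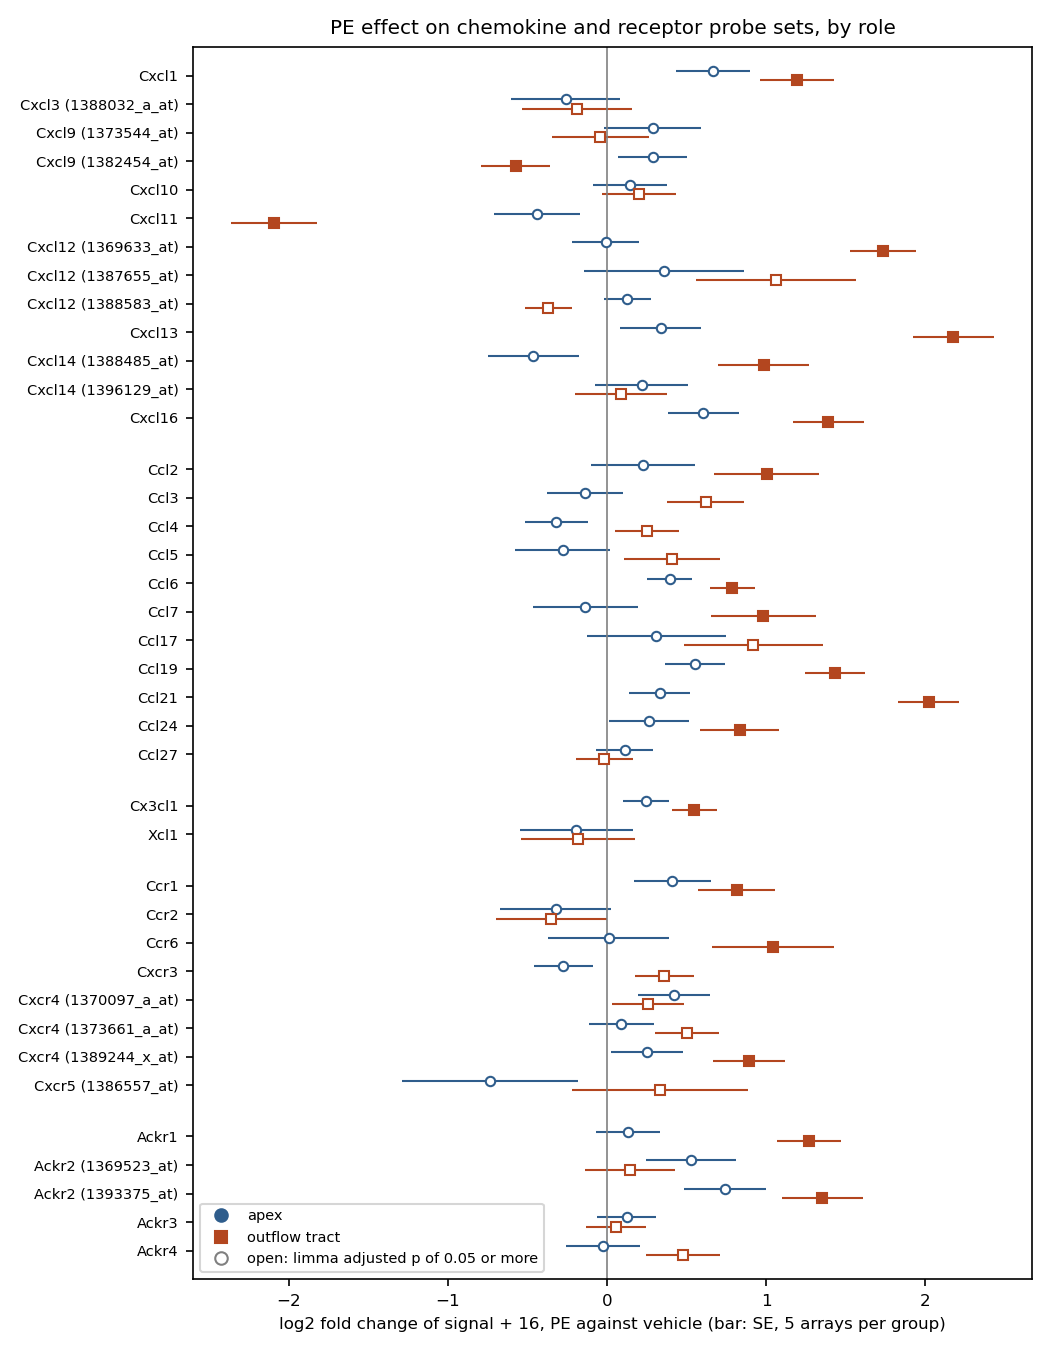
Points show the log2 fold change of signal plus 16 in PE against vehicle rats, with the SE as a bar, for the 37 probe sets above background and for Ccr6 and the dim probe set of Cxcl14, by role. Filled symbols passed limma at an adjusted p under 0.05: 17 outflow values lie above 0 and 2 below, and all apex symbols are open.

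Among the CXC ligands, 5 of 19 probe sets rose in the outflow tract, 2 fell and 12 did not pass the test, so that 36.8% were called, near the 34.5% of all probe sets. Cxcl13, which draws B cells through Cxcr5, had signals of 252, 303, 550, 442 and 283 on the vehicle outflow arrays and 1378, 920, 1888, 2188 and 2278 on the PE outflow arrays. The lowest PE value exceeded the highest vehicle value. The mean went from 366 ± 126 to 1730 ± 573 (SD, n = 5), 4.53-fold (log2 2.18 ± 0.25, limma adjusted p = 2.4e-06). In the apex the means were 376 ± 112 in vehicle and 469 ± 70.7 in PE rats (0.34 ± 0.25, adjusted p = 0.82). The PE effect was larger in the outflow tract by 1.84 ± 0.36 (adjusted p = 0.0020 for the difference). Its receptor gene Cxcr5 varied widely within every group, from 41.2 to 331 among the vehicle outflow arrays and from 50.4 to 313 among the PE outflow arrays, and did not pass the test in either region.

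Cxcl16 encodes a ligand held in the cell membrane until it is shed, and its receptor Cxcr6 was not analysed here. Its signals were 1245, 1076, 1445, 1534 and 1330 in vehicle outflow and 3514, 1818, 4008, 4370 and 4570 in PE outflow. The lowest PE value, that of replicate 2, was still above the highest vehicle value. Cxcl16 rose 2.63-fold (log2 1.39 ± 0.22, adjusted p = 6.1e-05). In the apex the signals were 1360, 1189, 1426, 721 and 1409 in vehicle and 2050, 1588, 1658, 1913 and 1895 in PE rats. It was the only member whose apex groups did not overlap (1 of 58 or 1.72% higher, against 1.56% of all probe sets, and 0 lower, against 1.5%), with a log2 fold change of 0.61 ± 0.22 and an adjusted p of 0.51. The effects in the 2 regions differed by 0.79 ± 0.31 (adjusted p = 0.092).

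Cxcl1, an attractant of neutrophils through Cxcr2, had 74.3, 49.8, 48.8, 65.3 and 50.8 in vehicle outflow and 155, 94.5, 164, 238 and 136 in PE outflow. The groups did not overlap, and Cxcl1 rose 2.29-fold (log2 1.19 ± 0.23, adjusted p = 3.9e-04). Its vehicle means, 57.8 in the outflow tract and 50.8 in the apex, were under the background limit. The PE means, 157 and 95.4, were over it, so the rise started from a signal near background. In the PE apex 3 arrays, at 127.8, 104 and 136, lay above all vehicle apex arrays, whose range was 39.3 to 59.7, while the other 2 were at 50.7 and 58.8. The apex value was 0.67 ± 0.23 (adjusted p = 0.47), and the difference between regions was 0.53 ± 0.33 (adjusted p = 0.30). Of the other ligands of Cxcr2, Cxcl2 and Cxcl6 were not above background. Cxcl3 was above background on 1 of its 5 probe sets, where it had -0.19 ± 0.34 in the outflow tract.

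**Figure D2:**
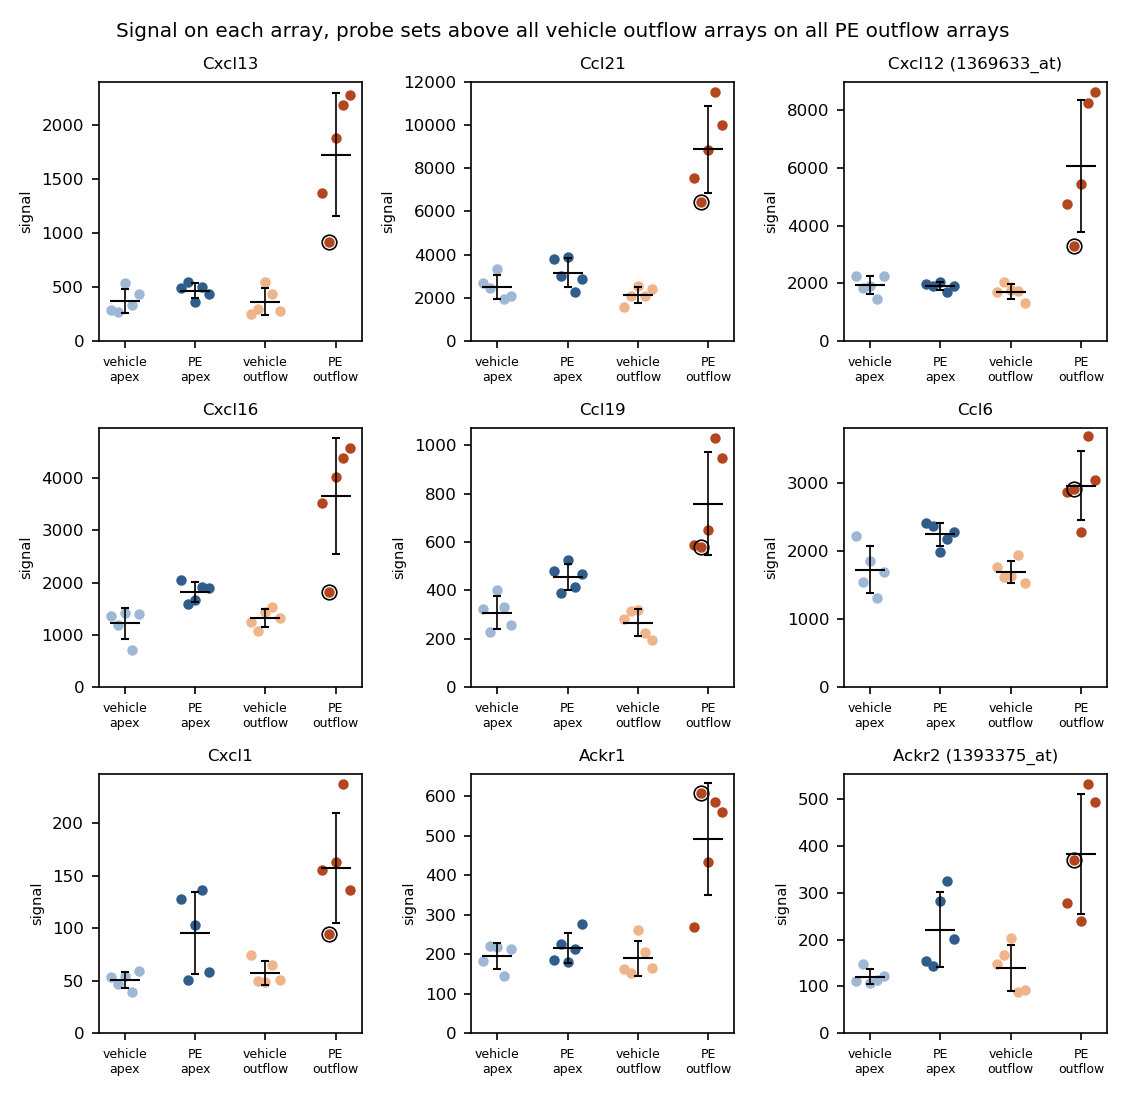
Each panel plots the linear signal of 1 probe set on every array by group, with the mean and SD in black, and PE outflow replicate 2 is circled. In all 9 panels the 5 PE outflow arrays lie above the 5 vehicle outflow arrays.

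Cxcl12, the stromal ligand of Cxcr4 and Ackr3, has 3 probe sets with different values. Probe set 1369633_at had 1697, 2038, 1769, 1753 and 1316 in vehicle outflow and 4739, 3284, 5434, 8220 and 8611 in PE outflow, a rise of 3.33-fold without overlap (log2 1.74 ± 0.21, adjusted p = 3.4e-06). In the apex its means were 1943 ± 324 and 1913 ± 124, and the regional difference of the PE effect was 1.74 ± 0.30 (adjusted p = 8.6e-04). Probe set 1387655_at had 210, 173, 93.3, 171 and 192 in vehicle outflow and 541, 39.2, 481, 762 and 585 in PE outflow. The 1 low PE value was that of replicate 2. With it the log2 fold change was 1.06 ± 0.50 (adjusted p = 0.12), and without it 1.75 (adjusted p = 1.9e-05). Probe set 1388583_at, which has the highest mean of the 3, had 5889, 4822, 4935, 4490 and 5004 in vehicle outflow and 3909, 5367, 3196, 3697 and 3516 in PE outflow. Here replicate 2 was the highest of its group, and the log2 fold change was -0.37 ± 0.15 (adjusted p = 0.060) with it and -0.49 (adjusted p = 0.0069) without it. The probes of these sets were not placed on the transcripts here, so which form or end of the Cxcl12 RNA each reads is not known.

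Cxcl9, Cxcl10 and Cxcl11 encode the ligands of Cxcr3, a receptor of activated T cells, and are known as targets of interferon-gamma. The 3 genes are direct neighbours on rat chromosome 14, with 0 other genes between them. Cxcl11 had 1647, 1362, 1950, 2622 and 2028 in vehicle outflow and 614, 697, 331, 396 and 252 in PE outflow. Every PE array lay below every vehicle array, a fall by 2.09 ± 0.27 on the log2 scale, or 4.27-fold (adjusted p = 6.4e-06). In the apex the means were 1899 ± 371 and 1438 ± 461 (-0.44 ± 0.27, adjusted p = 0.77), and the PE effect differed between regions by -1.65 ± 0.38 (adjusted p = 0.0055). Cxcl10 did not pass the test: it had 98.2, 111, 187, 100 and 166 in vehicle outflow and 136, 156, 128.3, 160 and 172 in PE outflow (0.20 ± 0.23, adjusted p = 0.57). Cxcl9 had -0.04 ± 0.31 on its brighter probe set (1373544_at), where PE outflow replicate 2 was the highest of its group. The signals were 261, 203, 195, 166 and 134 in vehicle outflow and 116, 379, 140, 139 and 226 in PE outflow. Over the alternatives of the closing section this value ran from -0.63 to 0.11. On the other probe set Cxcl9 fell by 0.57 ± 0.22 (1382454_at, adjusted p = 0.045), and 4 of 5 PE values were below the vehicle range.

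That call of Cxcl9 was lost when any of 7 of the 10 outflow arrays was left out: vehicle replicate 1, 3 or 5 (adjusted p = 0.094, 0.080 and 0.11) or PE replicate 1, 2, 3 or 4 (0.055, 0.077, 0.095 and 0.10). It was also lost with 64 added, with array weights, with the GAPDH covariate and with PE replicates 1 and 3 alone. Cxcr3 itself had 118, 144, 165, 112 and 119 in vehicle outflow and 131, 111, 173, 266 and 221 in PE outflow (0.36 ± 0.19, adjusted p = 0.15). It passed the test without PE replicate 2, at 0.50 (adjusted p = 0.027). Ifng, the gene of interferon-gamma, had a mean of 15.1 or less in each group and was not above background.

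Cxcl14, a chemokine of skin and stroma, had 99, 258, 211, 331 and 241 in vehicle outflow and 288, 410, 466, 567 and 520 in PE outflow on its brighter probe set (1388485_at). It rose 1.98-fold (log2 0.99 ± 0.29, adjusted p = 0.010), and 4 of 5 PE values were above the vehicle range. The apex value pointed the other way, at -0.46 ± 0.29 (adjusted p = 0.78), and the PE effect was larger in the outflow tract by 1.45 ± 0.40 (adjusted p = 0.017). With PE outflow replicates 1 and 3 alone, the outflow call and that of the difference were lost (0.74, adjusted p = 0.21, and 1.20, adjusted p = 0.14). Its dimmer probe set (1396129_at) had 0.09 ± 0.29 in the outflow tract.

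**Figure D3:**
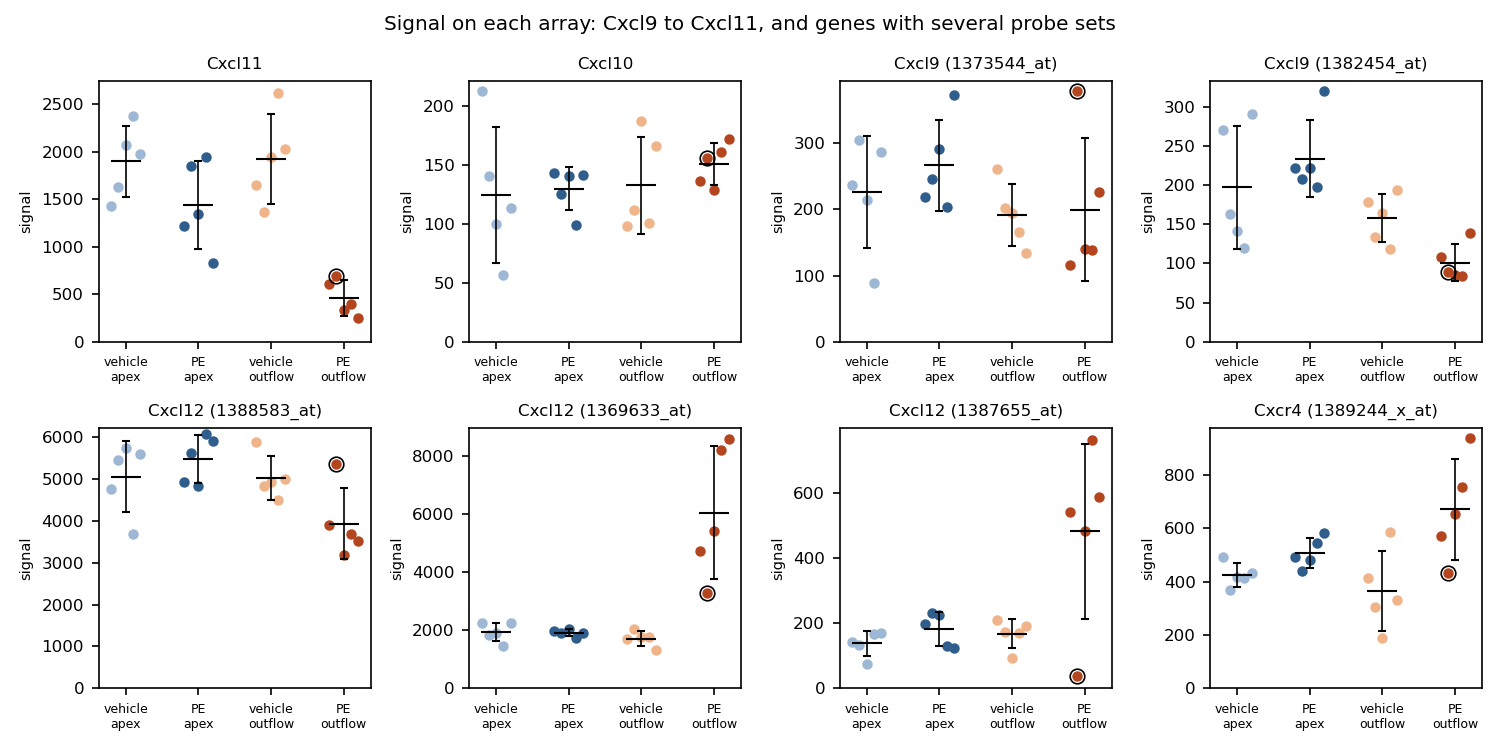
Linear signals on every array for Cxcl11, Cxcl10, both probe sets of Cxcl9, the 3 probe sets of Cxcl12 and the called probe set of Cxcr4, with the mean and SD per group in black and PE outflow replicate 2 circled. Cxcl11 lies lower on all PE outflow arrays and Cxcl10 overlaps. Of the Cxcl12 probe sets, 1369633_at alone passed limma in PE against vehicle outflow tract with all arrays.

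Of the 17 CC ligand probe sets, 6 rose in the outflow tract, 0 fell and 11 did not pass the test, a share called of 35.3%, near the 34.5% of all probe sets. Ccl21 and Ccl19 bind the same receptor, Ccr7, which guides dendritic cells and T cells toward lymph nodes, and Ccr7 was not analysed here. Ccl21 had 1596, 2104, 2535, 2111 and 2406 in vehicle outflow and 7544, 6421, 8860, 11508 and 10003 in PE outflow. The lowest PE array was above the highest vehicle array by more than the whole vehicle range, and Ccl21 rose 4.07-fold (log2 2.02 ± 0.19, adjusted p = 3.0e-07). Apex means were 2517 ± 554 and 3176 ± 684 (0.33 ± 0.19, adjusted p = 0.75), and the PE effect was larger in the outflow tract by 1.69 ± 0.27 (adjusted p = 6.0e-04).

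Ccl19 had 282, 316, 320, 225 and 194 in vehicle outflow and 587, 579, 652, 1031 and 945 in PE outflow, without overlap. It rose 2.70-fold (log2 1.43 ± 0.19, adjusted p = 8.6e-06). In the apex, with 324, 230, 402, 330 and 256 in vehicle and 480, 388, 525, 413 and 467 in PE rats, 4 of 5 PE values were above the vehicle range (0.55 ± 0.19, adjusted p = 0.46). The PE effect was larger in the outflow tract by 0.88 ± 0.27 (adjusted p = 0.028). This difference missed the threshold when vehicle apex replicate 3, vehicle outflow replicate 4 or 5, PE apex replicate 2, or PE outflow replicate 4 or 5 was left out (adjusted p = 0.055, 0.051, 0.055, 0.053, 0.055 and 0.057). It also missed it with PE outflow replicates 1 and 3 alone (0.63, adjusted p = 0.15) and with arrays centred on their median (0.77, adjusted p = 0.069). The same held under quantile normalization. Ccl27, the next member gene along chromosome 5 from Ccl19 with 0 genes between them, had -0.02 ± 0.18 in the outflow tract (adjusted p = 0.96).

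Ccl2 and Ccl7 attract monocytes through Ccr2 and are direct neighbours on chromosome 10. Ccl2 had 654, 1423, 550, 722 and 556 in vehicle outflow and 2176, 1155, 961, 2044 and 1427 in PE outflow. Vehicle replicate 2 lay inside the PE range, and 3 of 5 PE values were above the vehicle range. Ccl2 rose 2.00-fold (log2 1.004 ± 0.33, adjusted p = 0.023). The call was lost without vehicle outflow replicate 3 or 5 (adjusted p = 0.058 and 0.059) or PE outflow replicate 1 or 4 (0.062 and 0.063), and with PE outflow replicates 1 and 3 alone (0.97, adjusted p = 0.15). Array weights lost the call as well. Ccl7 had 103, 213, 140, 148 and 99 in vehicle outflow and 331, 158, 286, 400 and 302 in PE outflow. It rose 1.98-fold (log2 0.98 ± 0.33, adjusted p = 0.026). That call was lost without vehicle outflow replicate 1 or 5 (adjusted p = 0.061 and 0.067), PE outflow replicate 1, 4 or 5 (0.053, 0.070 and 0.051), with replicates 1 and 3 alone (1.10, adjusted p = 0.084) and with arrays centred on their median (0.85, adjusted p = 0.057). Quantile normalization lost the Ccl7 call too.

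Vehicle rat 2 stood above the other vehicle rats for both genes in both regions. Its Ccl2 signal was 1603 in the apex, where the other vehicle arrays had 440 to 991, and 1423 in the outflow tract, where they had 550 to 722. Its Ccl7 signal was 446 in the apex, against 83.1 to 156, and 213 in the outflow tract, against 99 to 148. Ccr2, their receptor, was at the background limit, with vehicle and PE outflow means of 74.1 ± 23.0 and 62.2 ± 37.4 (-0.35 ± 0.35, adjusted p = 0.49).

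Ccl6, a rodent chemokine of macrophages and other myeloid cells, had 1761, 1620, 1629, 1939 and 1532 in vehicle outflow and 2869, 2922, 2280, 3699 and 3050 in PE outflow. The groups did not overlap, and the rise was 1.73-fold (log2 0.79 ± 0.14, adjusted p = 1.9e-04). In the apex it had 0.40 ± 0.14 (adjusted p = 0.49), and 3 of 5 PE values were above the vehicle range. Ccl24, an attractant of eosinophils through Ccr3, had 230, 116, 137, 127 and 114 in vehicle outflow and 307, 179, 207, 343 and 311 in PE outflow. It rose 1.78-fold (log2 0.83 ± 0.25, adjusted p = 0.013), and 3 of 5 PE values were above the vehicle range, and not with PE replicates 1 and 3 alone (0.79, adjusted p = 0.10). Ccr3 was not above background.

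Ccl3, Ccl4 and Ccl5, attractants of monocytes and T cells, share a run of neighbouring genes on chromosome 10 with Ccl6 and Ccl9. None of the 3 passed the test in the outflow tract with all arrays. Ccl3 had 113, 113, 127, 118 and 96.2 in vehicle outflow and 158, 83.2, 250, 315 and 186 in PE outflow (0.62 ± 0.24, adjusted p = 0.053). The 1 PE array below the vehicle range was replicate 2, without which Ccl3 rose (0.87, adjusted p = 0.0013). Ccl5 had 502, 744, 464, 874 and 670 in vehicle outflow and 842, 323, 859, 1273 and 1441 in PE outflow. Again replicate 2 was the low array, and the log2 fold change was 0.41 ± 0.30 with it (adjusted p = 0.33) and 0.75 without it (adjusted p = 0.012). Ccl4 had 0.25 ± 0.20 (adjusted p = 0.37).

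Ccl17, a ligand of Ccr4 on helper T cells, had 19.2 to 102 in vehicle outflow and 30.9 to 186 in PE outflow, and its lowest PE value was again that of replicate 2. The log2 fold change was 0.92 ± 0.44 (adjusted p = 0.12) with that array and 1.27 without it (adjusted p = 0.019). Ccl22, the other ligand of Ccr4, lies on the far side of Cx3cl1 from Ccl17 on chromosome 19, and was not above background on either of its probe sets, nor was Ccr4.

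Cx3cl1 (fractalkine), a ligand bound to the membrane of endothelial and other cells, had 697, 594, 873, 741 and 724 in vehicle outflow and 1272, 809, 1051, 1085 and 1148 in PE outflow. It rose 1.46-fold (log2 0.55 ± 0.14, adjusted p = 0.0050), and 4 of 5 PE values were above the vehicle range and replicate 2 inside their range. Its receptor gene Cx3cr1 had a vehicle outflow mean of 56.8 ± 18.5 and a PE outflow mean of 78.9 ± 9.51 (0.42 ± 0.30, adjusted p = 0.33). Xcl1, the ligand of cross-presenting dendritic cells, had means of 163 ± 14.3 and 164 ± 94.0 (-0.18 ± 0.36, adjusted p = 0.75).

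Of the 15 receptor probe sets, 3 rose in the outflow tract (20%, against 19.6% of all probe sets), 0 fell and 12 did not pass the test. Ccr1, a receptor of monocytes and neutrophils for Ccl3, Ccl5 and Ccl6 among others, had 164, 189, 168, 190 and 84.1 in vehicle outflow and 352, 150, 263, 358 and 355 in PE outflow. All PE arrays but replicate 2 lay above the vehicle range, and Ccr1 rose 1.76-fold (log2 0.82 ± 0.24, adjusted p = 0.012). In the apex it had 0.41 ± 0.24 (adjusted p = 0.76).

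Cxcr4, the receptor of Cxcl12, rose on 1 of its 3 probe sets. Probe set 1389244_x_at had 414, 303, 189, 588 and 331 in vehicle outflow and 570, 433, 655, 757 and 939 in PE outflow, 1.86-fold higher (log2 0.89 ± 0.23, adjusted p = 0.0041), and 3 of 5 PE values were above the vehicle range. The suffix x marks a probe set in the manufacturer's naming whose probes may also bind other transcripts. The other 2 had 0.50 ± 0.20 (1373661_a_at, adjusted p = 0.063) and 0.26 ± 0.22 (1370097_a_at, adjusted p = 0.42). Without PE outflow replicate 2 the former was called as well (0.62, adjusted p = 0.023), as it was without vehicle outflow replicate 4 (0.65, adjusted p = 0.014). Ccr6, the receptor of Ccl20, was not above background over the 20 arrays, with 23.9, 32.6, 11.9, 85.9 and 19.3 in vehicle outflow and 55, 119, 53.7, 71.1 and 109 in PE outflow. Its rise (1.04 ± 0.38, adjusted p = 0.040) was lost without vehicle outflow replicate 1, 2, 3 or 5 (adjusted p = 0.075, 0.057, 0.11 and 0.090) and without PE outflow replicate 2, 4 or 5 (0.090, 0.059 and 0.095). It had 0.63 with replicates 1 and 3 alone (adjusted p = 0.45).

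All 4 atypical receptor genes were above background, and 2 of their 5 probe sets rose in the outflow tract (40%, against 19.6% of all probe sets). Ackr1, the Duffy antigen receptor of venules and red cells, which carries inflammatory chemokines across the vessel wall, had 164, 154, 261, 206 and 166 in vehicle outflow and 269, 608, 435, 587 and 561 in PE outflow. The groups did not overlap, and here replicate 2 was the highest PE array. Ackr1 rose 2.41-fold (log2 1.27 ± 0.20, adjusted p = 5.4e-05). Its apex means were 196 ± 31.8 and 217 ± 38.1 (0.13 ± 0.20, adjusted p = 0.93), and the PE effect was larger in the outflow tract by 1.14 ± 0.28 (adjusted p = 0.0091). With replicates 1 and 3 alone the outflow value was 0.82 (adjusted p = 0.014) and the difference 0.69 (adjusted p = 0.14). With the GAPDH ratio as a covariate the difference was 0.81 (adjusted p = 0.054).

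Ackr2, which takes up and degrades inflammatory CC chemokines such as Ccl2, had 148, 167, 204, 87.3 and 93.5 in vehicle outflow and 279, 371, 240, 532 and 493 in PE outflow on its brighter probe set (1393375_at). It rose 2.56-fold without overlap (log2 1.35 ± 0.26, adjusted p = 3.3e-04), and with PE replicates 1 and 3 alone it had 0.88 (adjusted p = 0.051). In the apex it had 112, 147, 107, 113 and 122 in vehicle and 154, 143, 283, 324 and 201 in PE rats (0.74 ± 0.26, adjusted p = 0.47). The other probe set of Ackr2 (1369523_at) had 0.14 ± 0.28 in the outflow tract. Ackr3, the scavenger of Cxcl12 and Cxcl11, had means of 4333 ± 1092 and 4526 ± 1100 (0.06 ± 0.19, adjusted p = 0.86), and with arrays centred on their median its value was -0.08. Ackr4, which takes up Ccl19 and Ccl21, had 421 ± 137 and 582 ± 144 (0.48 ± 0.23, adjusted p = 0.13), and 0.62 (adjusted p = 0.044) without PE replicate 2.

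The apex was the region of few changes. None of the 58 member probe sets passed limma there, as for nearly all probe sets (0.0129% called), and 5 had an unadjusted p under 0.05, against 2320 of 31042. These were Ackr2, Ccl19, Ccl6, Cxcl1 and Cxcl16, with log2 fold changes of 0.74, 0.55, 0.40, 0.67 and 0.61 and adjusted p from 0.46 to 0.51. All 5 were called higher in the outflow tract. The median of the 58 in the apex was 0.19, against 0.00 for all probe sets.

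The PE effect itself differed between the regions for 7 of 58 member probe sets (12.1%, against 17.9% of all), with 6 more positive in the outflow tract (9.84% of all probe sets) and 1 more negative (8.09% of all). It was larger in the outflow tract for Cxcl13, Cxcl12 (1369633_at), Ccl21, Cxcl14, Ackr1 and Ccl19 and more negative there for Cxcl11, with the values given above. For the other rising genes, such as Cxcl1, Cxcl16, Ccl6, Ccr1 and Ackr2, a call in the outflow tract and none in the apex does not show a regional difference. Without PE outflow replicate 2, 16 member probe sets differed between regions, among them the 7. The share of all probe sets called also rose without that array, from 17.9% to 23%.

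Between the regions of vehicle rats, 0 of 58 members and 0 of 31042 probe sets (0%) passed limma, and 2 members had an unadjusted p under 0.05, against 1152 of all. In PE rats 16 members were higher and 3 lower in the outflow tract than in the apex (32.8%, against 28.7% of all probe sets, of which 16% were higher and 12.7% lower). Without overlap, 7 were higher (12.1%, against 11.5% of all) and 2 lower (3.45%, against 8.64%). This comparison shares the PE outflow arrays with the comparison above. The 3 lower ones were Cxcl11 (-1.65 ± 0.27, adjusted p = 1.3e-04), the dimmer Cxcl9 probe set 1382454_at (-1.10 ± 0.22, adjusted p = 6.8e-04) and the brightest Cxcl12 probe set 1388583_at (-0.49 ± 0.15, adjusted p = 0.016). Cxcl14 was 3.10-fold higher in the outflow tract of PE rats (1.63 ± 0.29, adjusted p = 2.4e-04), at 450 ± 108 against 135 ± 40.04 in their apex. Cxcr3 and Ccl3, which were not called against vehicle, were higher here by 0.53 ± 0.19 (adjusted p = 0.039) and 0.76 ± 0.24 (adjusted p = 0.023). The call of Cxcr3 was lost without any of PE apex replicates 2 to 5 or PE outflow replicates 3 to 5 (adjusted p from 0.063 to 0.12), and that of Ccl3 without PE apex replicate 5 or PE outflow replicate 3 or 4 (adjusted p = 0.067, 0.064 and 0.077). Quantile normalization, median centring and fitting only the compared groups also lost both calls, and PE outflow replicates 1 and 3 alone that of Cxcr3. Without PE outflow replicate 4 the count fell to 7 higher and 3 lower, and without replicate 2 it was 17 higher and 5 lower. Of all probe sets 24.8% and 31.5% were called in these 2 fits.

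**Figure D4:**
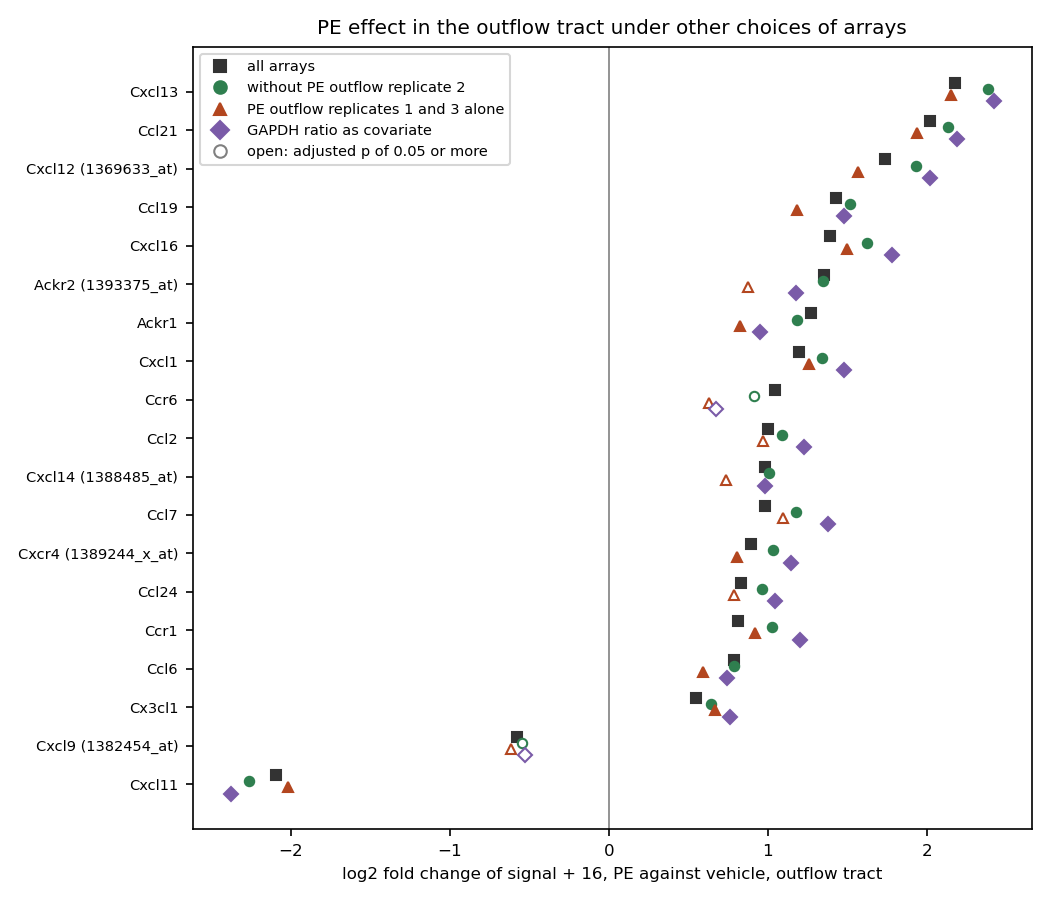
Log2 fold change in PE against vehicle outflow tract for the 19 called probe sets with all arrays, without PE outflow replicate 2, with PE outflow replicates 1 and 3 alone, and with the GAPDH ratio as a covariate. Filled symbols passed limma at an adjusted p under 0.05, and every probe set keeps its direction in the 4 fits.

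PE outflow replicate 2 was the lowest of the 5 PE arrays for 11 of the 17 probe sets that rose, and replicate 4 was the highest for 9. Without replicate 2, 26 member probe sets were called, 17 of them among the 19, while 37.1% of all probe sets were called, against 34.5% with all arrays. With replicates 1 and 3 alone 15 were called, 12 of them among the 19, while 23.5% of all probe sets were called. Those 12 were Cxcl1, Cxcl11, Cxcl12 (1369633_at), Cxcl13, Cxcl16, Ccl6, Ccl19, Ccl21, Cx3cl1, Ccr1, Cxcr4 (1389244_x_at) and Ackr1.

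Genes around the chemokine system were read from lists chosen for their role, each gene by its brightest probe set, and the median of a list is set against 0.05 for all probe sets. The counts come from the fit with all arrays and were not repeated without the PE outflow arrays of high GAPDH ratio. They are to be read beside the shares over the array in the outflow tract. Of all probe sets 19.6% rose and 14.9% fell, and of those with a 20-array mean over 64, 27% rose and 21.9% fell. None of their members passed the test in the apex. Of 11 genes of related ligands and receptors under other names, 7 rose in the outflow tract and 1 fell (median 0.93). Rarres2, the precursor of the attractant chemerin, rose by 1.44 ± 0.12 (adjusted p = 1.1e-07), and Cmklr1, the chemerin receptor, by 1.18 ± 0.14 (adjusted p = 2.5e-06). Mif, a cytokine that also binds Cxcr4, was the 1 that fell (-0.57 ± 0.12, adjusted p = 0.0012), named outside the rule after its value was seen. Cmtm7 and Cmtm3, of a family related to chemokines, rose by 1.12 and 1.02.

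Of 10 cytokines that induce chemokines, 2 rose (Il1b by 1.16 ± 0.25, from a mean of 102 to 251, and Il18 by 1.18 ± 0.27, from 150 to 378) and 1 fell (Il4, which was not above background in any group). Their median was 0.22, and Tnf had 0.53. Of 12 genes of the NF-kappaB pathway and its receptors, 5 rose and 0 fell (median 0.31). The receptors Tnfrsf1a (1.44 ± 0.13, adjusted p = 2.3e-07), Il1r1 (1.31 ± 0.17) and Tlr4 (0.96 ± 0.20) and the adaptor Myd88 (0.95 ± 0.13) had the smallest p.

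Of 23 genes that carry the signal of chemokine receptors, 10 rose, 1 fell and 12 did not pass the test (median 0.38). Gng2, a G protein subunit, rose by 1.69 ± 0.24, the exchange factor Vav1 by 1.25 ± 0.18 and Grk6, a kinase that desensitizes receptors, by 1.16 ± 0.18. Rgs1, which ends the G protein signal, rose by 1.65 ± 0.27. The 1 that fell was Ncf1, a subunit of the phagocyte oxidase (-1.39 ± 0.24, adjusted p = 1.6e-04), named outside the rule after its value was seen. Of 9 proteases that cut or shed chemokines, 5 rose and 2 fell (median 1.02). Mmp2 rose by 1.505 ± 0.13, Mmp14, which activates it, by 1.02 ± 0.18, Adam17, the sheddase of Cx3cl1, by 1.04 ± 0.17 and Mmp12 by 1.83 ± 0.38, the last from 19.3 to 114. Those that fell were Dpp4, which trims the ends of Cxcl10, Cxcl11 and Cxcl12 (-0.50 ± 0.19), and Adam10, which sheds Cxcl16 and Cx3cl1 (-0.75 ± 0.24), likewise named outside the rule. Of 10 genes of leukocyte adhesion, 4 rose and 0 fell (median 0.48): Vcam1 by 2.07 ± 0.28, Icam1 by 1.96 ± 0.20, Icam2 by 0.55 ± 0.10 and Selp by 0.94 ± 0.22.

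Markers of cells that carry or make chemokines moved in the outflow tract for some cell types and not for others. Their part in the results above was not tested, and their counts come from the fit with all arrays only. A summed signal follows the brightest probe sets of its list. Of all probe sets over 64, 27% rose in the outflow tract and 21.9% fell. All 12 measured monocyte and macrophage markers rose there and 0 of 12 in the apex. Their summed signal was 11680 to 17347 on the vehicle outflow arrays and 17838 to 43768 on the PE outflow arrays, against 9596 to 14640 and 15451 to 20635 in the apex. Of 7 neutrophil markers 1 rose (Csf3r, mean 63.7 in PE outflow), and 6, Csf3r among them, were not over 64 in any group. S100a8 and S100a9, both on the neutrophil list, had PE outflow means of 20.7 and 31.5. Of 10 T cell markers 4 rose (Lck, Cd3d, Cd3e and Cd247), with a summed signal of 985 to 1293 in vehicle and 1401 to 2138 in PE outflow. Of 3 B cell markers 0 rose, and Ms4a1 and Cd79b, which define these cells, had PE outflow means of 41.6 and 15.1. NK cell markers rose for 0 of 5.

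Dendritic cell markers rose for 3 of 4 and mast cell markers for 4 of 7. Fibroblast markers rose for 9 of 10, with summed signals of 53492 to 77713 in vehicle and 131644 to 153033 in PE outflow. Endothelial markers rose for 2 of 7, near the 27% of all probe sets over 64, and fell for 1. Their median log2 fold change was 0.15, while their summed signals were 11736 to 16050 in vehicle and 19144 to 22127 in PE outflow. Of 4 lymphatic markers, Lyve1 and Pdpn rose (1.07 and 1.24), Prox1, which defines lymphatic endothelium and is also made in heart muscle, fell by 1.09, and Flt4 did not pass the test. The 4 summed to 3756 to 4805 in vehicle and 4433 to 7555 in PE outflow.

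Smooth muscle markers rose for 4 of 5 and fell for 1, and cardiomyocyte markers fell for 6 of 7 and rose for 0. The cardiomyocyte sum was 275140 to 336289 on the vehicle outflow arrays and 128981 to 339426 on the PE outflow arrays. Cartilage markers rose for 4 of 5, from sums of 84.8 to 193 in vehicle to 567 to 5364 in PE outflow. Adipocyte markers rose for 3 of 5 and fell for 1, but their sums overlapped, at 8726 to 16100 in vehicle and 7945 to 12156 in PE outflow. Mesothelial markers rose for 2 of 3 and fell for 1, and their sums overlapped too (405 to 582 and 492 to 724). Markers of platelets and red cells rose for 0 of 4.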

How the data were processed

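Each probe set has 1 intensity per array in the deposited table, on a linear scale judged from the values. The 2% trimmed mean of these intensities is 500 on each of the 20 arrays, so the deposited values had been scaled to it. The software that made them is not given in the sources used here. One protocol field speaks of vehicle for every animal, and the groups follow the titles and the treatment field. Genes were taken from the platform annotation, with 1 symbol for 20826 of 31042 probe sets, several for 436 and none for 9780, and all 58 member probe sets matched a current rat gene by Entrez identifier. Signals plus 16 were put on a log2 scale and fitted with limma 3.58.1 (lmFit, eBayes, two-sided) in R 4.3.3, with all 4 groups in 1 model and 5 comparisons. The code was tested on simulated data. A gene with several probe sets is represented by the one with the highest mean, with the others beside it.

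The members, lists and tests were chosen with earlier results of these data known. By the naming rule, every member above background or called is given with its values, and up to 4 genes per related list with the smallest p in the outflow tract. Over 12310 probe sets, deviations from group means correlated at 0.181 to 0.283 between apex and outflow arrays of the same replicate number and treatment, so these were read as rats, and a rat block was run as an alternative. Vehicle and PE arrays of the same number, which come from different rats, correlated at -0.075 to 0.154 in the apex and -0.283 to 0.103 in the outflow tract. The titles do not state which arrays share a rat. The other alternatives are named in the closing section. The number of arrays limits the precision. P-values of the main fit set a change against the spread between arrays within the 4 groups. That fit treats the arrays as independent, so its comparisons between regions leave out the pairing by rat.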

Additional observations from a re-analysis of the deposited data

Results flagged for a closer look

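The PE effect differed between outflow tract and apex for 7 probe sets, tested as the difference itself by limma over 5 arrays per group: Cxcl13 by 1.84, Cxcl12 (1369633_at) by 1.74, Ccl21 by 1.69, Cxcl14 (1388485_at) by 1.45, Ackr1 by 1.14 and Ccl19 by 0.88 on the log2 scale, all larger in the outflow tract, and Cxcl11 by -1.65.

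In 14 of 156 sets of 5 arrays (39 probe sets in 4 groups), 1 array lay far from the other 4, and chance flags about 1 in 20 such sets. On PE apex replicate 1, Ccl2 was high at 1159 (others 730 to 851), Ccl7 at 199 (others 111 to 133) and Cxcr3 at 138 (others 106 to 115). On vehicle outflow replicate 2, Ccl2 was high at 1423 (others 550 to 722) and Ccl4 at 235 (others 113 to 121), and on the apex array with the same replicate number Ccl7 was high at 446 (others 83.1 to 156). On PE outflow replicate 2, Ccl27 was high at 338 (others 132 to 182) and Cxcr4 (1370097_a_at) low at 201 (others 363 to 427). Other high values were those of Ccl24 on vehicle outflow replicate 1 (230, others 114 to 137), Ccl3 on vehicle apex replicate 4 (169, others 95.7 to 111), Ccr6 on vehicle outflow replicate 4 (85.9, others 11.9 to 32.6) and Cxcl9 (1382454_at) on PE apex replicate 5 (320, others 198 to 222). Low values were those of Ccr1 on vehicle outflow replicate 5 (84.1, others 164 to 190) and Xcl1 on PE apex replicate 3 (58.3, others 181 to 223).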

How the results depend on the processing

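Alternatives were quantile normalization, centring arrays on their median, adding 1 or 64, leaving out the dimmest 40% of probe sets, fitting only the compared groups, a rat block, array weights, the GAPDH ratio as a covariate, PE outflow replicates 1 and 3 alone, trended and robust variances, and leaving out each array. In the apex and between the regions of vehicle rats, 0 members were called in every setting. Leaving out 1 array gave 15 to 26 called in the outflow tract (14 to 23 higher, 1 to 3 lower), 6 to 16 for the difference (5 to 12 higher, 1 to 4 lower) and 10 to 22 between the regions of PE rats (7 to 17 higher, 3 to 5 lower). Of all probe sets the same fits called 30.4% to 37.1%, 14.5% to 23% and 23.9% to 31.5%. For the difference, 2 were lower instead of 1 under quantile normalization, median centring, the filter on dim probe sets, robust variances, replicates 1 and 3 alone and the replicate block for the rat. That block changed no call of the 19 in the outflow tract (consensus correlation 0.0651), but each rat gave 1 array to that comparison, so it could change little there. Of all probe sets it called 19.6% instead of 17.9% for the difference and 30.2% instead of 28.7% between the regions of PE rats. Array weights gave 14 called for the difference (5 lower) and the GAPDH covariate 15 (11 higher, 4 lower), and the latter gave 5 lower between the regions of PE rats. There, quantile normalization gave 11 called (9 higher), median centring 10 (7 higher) and replicates 1 and 3 alone 11 (7 higher). The shares of all probe sets called in these 3 fits were 28.5%, 27.6% and 17.1%. For the difference, array weights called 21.9% of all probe sets and the GAPDH covariate 18.6%. Over all probe sets, median centring gave 2046 higher and 3241 lower for the difference instead of 3056 and 2511, and 3707 and 4875 between the regions of PE rats instead of 4971 and 3953. Among members not called, directions turned as follows. In the apex, Ccr6 (0.01) had -0.011 with median centring, -0.010 with 64 added and -0.11 with array weights. In the outflow tract, Ackr3 (0.06) had -0.077 with median centring, -0.044 with array weights and -0.040 with replicates 1 and 3 alone, where Ccl4 had -0.064. The dim Cxcl14 probe set had -0.048 with median centring and -0.0036 with the GAPDH covariate, which also turned Ccr2 to 0.33 and Xcl1 to 0.38. Leaving out 1 array gave, in the apex, -0.32 to 0.23 for Ccl7, -0.19 to 0.25 for Ccr6 and -0.10 to 0.049 for Cxcl12 (1369633_at). In the outflow tract it gave -0.045 to 0.21 for Ackr3, -0.22 to 0.095 for Ccl27, -0.55 to 0.032 for Ccr2, -0.54 to 0.047 for Cxcl3, -0.29 to 0.11 for Cxcl9 (1373544_at), -0.43 to 0.14 for Xcl1 and -0.0099 to 0.22 for the dim Cxcl14 probe set. Why these values moved was not tested. Signal near background limits what the dim receptors can show.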
